A study of Mus musculus with 4 samples.

Results

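The fibulins are secreted glycoproteins of the extracellular matrix. Their genes were chosen by family: Fbln1, Fbln2, Fbln5, Fbln7, Efemp1 (fibulin-3), Efemp2 (fibulin-4) and Hmcn1 (hemicentin-1, sometimes counted as fibulin-6), 7 of the 32287 features counted in single smooth muscle cells of the mouse aorta. All 7 were detected. The family was picked with the expression pattern of Fbln1 in these libraries already known, so that its levels are given as a description. No test was available for any gene, because each group of cells came from 1 library.

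Fibulins carry tandem calcium-binding EGF-like repeats and end in a fibulin-type domain. Fibulin-4 and fibulin-5 bind tropoelastin and lysyl oxidases and are needed to build elastic fibres, and mice or people lacking fibulin-4 develop aortic aneurysms. Fibulin-1 and fibulin-2 bind fibronectin, laminins, nidogen, versican and aggrecan, whereas hemicentins organise tissue junctions and basement membranes.

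Cells came from 12-week-old mice carrying Wnt1-Cre2 and the mT/mG reporter. In such mice cells with a history of Wnt1-Cre2 activity, mostly of neural crest descent, make membrane eGFP, and all others keep membrane tdTomato. Smooth muscle cells were digested from the tissue in the cold, sorted as single, viable and positive for integrin alpha 8, and counted with the 10x Chromium 3' chemistry. Every library shared the age, the genotype and the sort on integrin alpha 8, and the labels give neither the number of animals pooled nor their sexes. The 4 libraries were Arch-GFP (eGFP cells of the arch), Root (the aortic root), Asc-GFP (eGFP cells of the ascending segment) and Asc-RFP (tdTomato cells of that segment). The root library held both colours and was divided by reporter UMIs (unique molecular identifiers, 1 per captured transcript). Cells with at least 8 eGFP and at most 1 tdTomato UMIs are called Root eGFP, and cells with at least 2 tdTomato and at most 3 eGFP UMIs Root tdTomato. The remaining 562 root cells stayed outside the reporter comparison.

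The libraries held 8031 Arch-GFP, 2960 root, 6408 Asc-GFP and 4030 Asc-RFP cells after filtering, and the root gave 576 eGFP and 1822 tdTomato cells. Totals ran from 39691658 UMIs in the root to 100987052 in Arch-GFP, with medians of 12628 to 13605 UMIs per cell. All 8 smooth muscle markers were detected in every group, at a summed 41849 to 48290 CPM (counts-per-million, the UMIs of a gene scaled to all UMIs of the group). Markers of other cells were rarer: fibroblast markers summed to 279, 179, 207, 339 and 261 CPM in Arch-GFP, Root eGFP, Asc-GFP, Root tdTomato and Asc-RFP cells, and macrophage markers to 0.624, 21.4, 5.29, 605 and 171 CPM. Of the fibroblast sums, Col15a1, also a basement membrane gene, alone made up 239, 119, 179, 111 and 170 CPM in that order. By Xist and Y-linked UMIs, female cells made up 29.1% of the sexed Arch-GFP cells, 87.8% of the root, 70.1% of Asc-GFP and 54.4% of Asc-RFP. UMIs of both kinds were seen in 816 Arch-GFP, 57 root, 607 Asc-GFP and 212 Asc-RFP cells. Neither kind was seen in 1198, 159, 539 and 371 cells. Values for 1 sex leave out the cells with both or neither. Any pair of libraries shared 4 to 18 barcodes. Doublets and free RNA were not removed. Intervals are 95% exact intervals that cover counting error only. The Root eGFP and Root tdTomato cells come from the same library, and comparisons that use the same library share its error.

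Fbln1 lies on chromosome 15 (85205949 to 85286535, plus strand), Fbln2 on chromosome 6 (91212455 to 91272540, plus), Fbln5 on chromosome 12 (101746565 to 101819055, minus), Fbln7 on chromosome 2 (128862981 to 128897034, plus), Efemp1 on chromosome 11 (28853204 to 28926743, plus), Efemp2 on chromosome 19 (5473954 to 5482517, plus) and Hmcn1 on chromosome 1 (150562524 to 150993435, minus) of mm10. The count for a gene sums its transcripts, so the Fbln1 splice forms, which differ at the carboxyl end, were not separated. Efemp2 overlaps Mus81 on the opposite strand and Hmcn1 overlaps Gm20631, an antisense gene. The sources used here do not give the strand handling, so that reads of these pairs are uncertain.

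Promoter windows of the 3 genes that were at least 2-fold higher in 1 cluster of arch cells, described further on, are shown because these genes were higher together there. Each line is the 250 bases before a RefSeq transcription start on GRCm38.p6, written 5' to 3' on the strand of the gene, with matches to the searched motifs in capitals. All 7 genes matched, with 11 windows between them.
Fbln1, chr15:85205699-85205948, plus strand: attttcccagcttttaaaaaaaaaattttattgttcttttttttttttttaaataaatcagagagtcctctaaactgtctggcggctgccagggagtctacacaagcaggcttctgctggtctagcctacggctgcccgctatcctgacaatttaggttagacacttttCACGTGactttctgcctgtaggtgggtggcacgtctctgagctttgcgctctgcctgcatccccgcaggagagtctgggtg
Efemp1, chr11:28852955-28853204, plus strand: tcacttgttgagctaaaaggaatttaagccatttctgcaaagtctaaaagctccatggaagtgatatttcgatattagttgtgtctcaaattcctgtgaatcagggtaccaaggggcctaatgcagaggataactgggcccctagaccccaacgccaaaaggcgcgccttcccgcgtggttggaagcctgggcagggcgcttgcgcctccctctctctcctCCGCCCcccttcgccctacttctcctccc
Fbln5, chr12:101819120-101819369, minus strand: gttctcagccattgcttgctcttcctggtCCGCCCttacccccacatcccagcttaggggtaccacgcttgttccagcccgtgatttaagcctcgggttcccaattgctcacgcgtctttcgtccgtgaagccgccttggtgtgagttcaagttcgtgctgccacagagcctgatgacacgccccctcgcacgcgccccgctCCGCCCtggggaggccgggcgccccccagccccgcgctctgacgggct
Each motif was searched on both strands, and none of them contains another. The E-box CACGTG, its own reverse complement, occurred in 6.02% of 32851 such windows over the genome. The homeodomain core TAATTA, bound by many factors including those of the Dlx and Msx families, occurred in 4.84% of windows. The share was 32.7% for the GC box, spelled GGGCGG on one strand and shown in its reverse complement where the match lay on the other. For the motif named after its letters TATAAA the share was 12.4%. The Fbln1 window had 1 E-box, 81 to 76 bases before the start. The Efemp1 window had 1 GC box, 29 to 24 bases before the start and on the other strand. The Fbln5 window had 2 GC boxes on the other strand, at 221 to 216 and at 48 to 43 bases. No motif was shared by all 3 windows shown. GC content was 46.4% for Fbln1, 53.6% for Efemp1 and 65.2% for Fbln5, against a median of 52.4% over all windows. A window of another Fbln1 start, not shown, held the same E-box and 1 GC box, 11 to 6 bases before that start. A window of another Fbln5 start held 1 homeodomain core. These matches describe letters and are not binding sites.

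Fbln5 and Efemp2, which encode the fibulins that assemble elastic fibres, were the most abundant members, and each was within 2-fold of itself across the groups. Fbln5 stood at 630.0 CPM in Arch-GFP, 653 in Root eGFP, 617 in Asc-GFP, 614 in Root tdTomato and 530 in Asc-RFP cells. After thinning each cell to 4000 UMIs, a Fbln5 UMI was seen in 85.9% of Arch-GFP, 82.7% of Root eGFP, 87.4% of Asc-GFP, 82.4% of Root tdTomato and 82.5% of Asc-RFP cells. Most muscle cells of every segment and colour therefore held Fbln5 transcripts. Efemp2 stood at 102 CPM in Arch-GFP, 89.6 in Root eGFP, 95.8 in Asc-GFP, 86.5 in Root tdTomato and 95.2 in Asc-RFP cells. It was seen in 28.9% to 34.9% of thinned cells. In macrophage-like root cells, which should lack both genes, Fbln5 was seen in 32.9% and Efemp2 in 20% of 70 cells thinned to the same depth. Without thinning these shares were 53.5% and 34.3% of 99 cells, at a median of 8285 UMIs. Their levels there, 198 CPM for Fbln5 and 59.0 CPM for Efemp2, give a scale for free RNA and mixed droplets in that library.

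Each captured transcript was counted at its 3' end, so levels can be set between genes without dividing by length. After Fbln5 and Efemp2, Fbln1 came next in level in Arch-GFP, at 41.5 CPM. The other 4 members were below 9 CPM in every group. Fbln2 was at 6.28 CPM in Arch-GFP, 3.65 in Root eGFP, 5.74 in Asc-GFP, 8.72 in Root tdTomato and 8.41 in Asc-RFP cells. Efemp1, which encodes a small fibulin relatively close to fibulin-4 and fibulin-5, was at 4.80 CPM in Arch-GFP, 2.35 in Root eGFP, 1.62 in Asc-GFP, 2.11 in Root tdTomato and 1.37 in Asc-RFP cells. Fbln7 encodes an adhesive fibulin described in developing teeth. It was at 3.24 CPM in Arch-GFP, 2.87 in Root eGFP, 1.76 in Asc-GFP, 1.37 in Root tdTomato and 0.5004 in Asc-RFP cells. Hmcn1 had 13 UMIs in Arch-GFP, 2 in Root eGFP, 2 in Asc-GFP, 91 in Root tdTomato and 17 in Asc-RFP cells. It was the lowest member in each group but Root tdTomato, where its 3.56 CPM lay above Efemp1 and Fbln7.

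**Figure D1:**
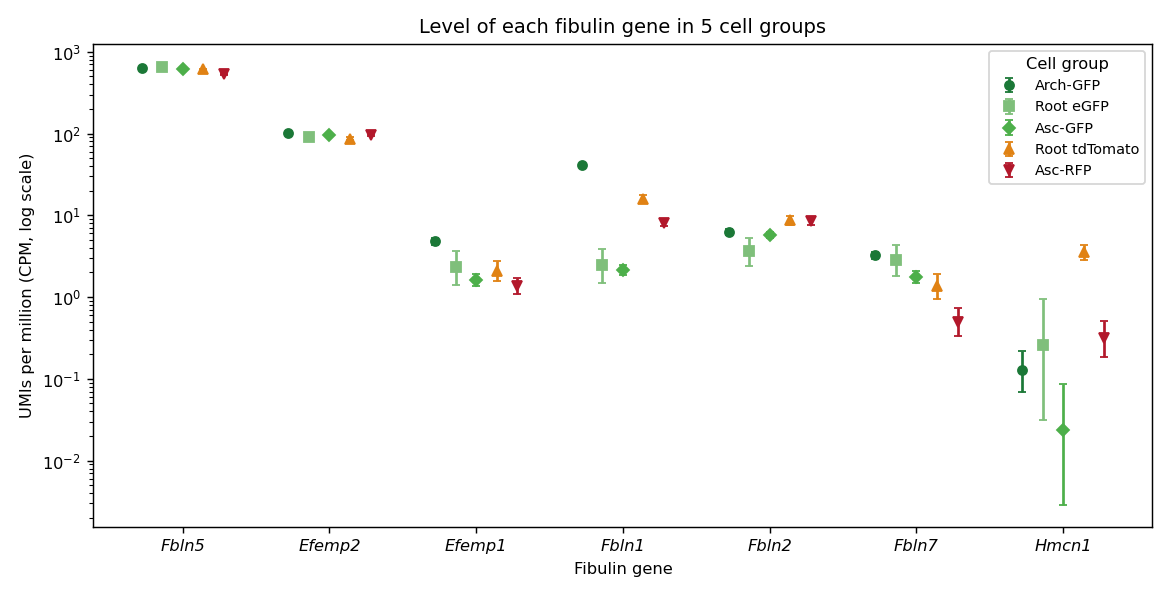
Level of each fibulin gene in CPM (log axis) in Arch-GFP, Root eGFP, Asc-GFP, Root tdTomato and Asc-RFP cells; points are sums over the cells of 1 library or of 1 reporter class of the root, and bars are 95% counting intervals. Fbln5 lies between 530 and 653 CPM and Efemp2 between 86.5 and 102 CPM, while Fbln1 runs from 2.15 CPM in Asc-GFP to 41.5 CPM in Arch-GFP.

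Fbln1 separated the arch from the other eGFP cells. Its level was 41.5 CPM in Arch-GFP (interval 40.3 to 42.8, 4196 UMIs), 2.48 CPM in Root eGFP (1.49 to 3.87, 19 UMIs) and 2.15 CPM in Asc-GFP (1.85 to 2.49, 181 UMIs). In tdTomato cells it was 15.9 CPM in the root (14.4 to 17.6, 408 UMIs) and 8.12 CPM in Asc-RFP (7.37 to 8.91, 438 UMIs). The order was thus Arch-GFP, Root tdTomato, Asc-RFP and then Root eGFP and Asc-GFP, whose intervals overlapped. Every other neighbouring pair was apart by more than its counting intervals.

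Against Asc-GFP, Fbln1 in Arch-GFP was 19.3-fold higher (log2 4.27, interval 4.06 to 4.49), rank 3 among 5792 genes that reached 20 CPM in either library. Of the fibulins, Fbln1, Fbln5 and Efemp2 reached that level there, and 1 of the 3 was at least 2-fold higher. The background was 0.345% of measured genes past 2-fold upward and 0.104% downward. The same genes were measured against Root eGFP, where Fbln1 had a log2 ratio of 4.07 (3.42 to 4.80), rank 6 among 5926 genes. Again 1 of 3 measured members was past 2-fold, beside 1.5% of all genes higher and 1.08% lower. Since Fbln1 was chosen for this pattern, these counts support nothing about the family. Without cluster 7, described below, the log2 ratio was 2.45 against Asc-GFP and 2.06 against Root eGFP, a choice made after seeing the data. Against Root eGFP the value also moved with sex, to 5.10 in female and 2.02 in male cells, the second resting on 64 Root eGFP cells.

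Over the same libraries the 10 fibroblast markers were all detected in Arch-GFP, with 9 in Asc-GFP and 6 in Root eGFP cells, at the summed levels given above. The 6 pericyte markers, of which Rgs5 is also a gene of the arch muscle cells described here, summed to 830.2 CPM in Arch-GFP, 406 in Root eGFP and 567 in Asc-GFP. Endothelial markers summed to 28.5 CPM in Arch-GFP, with Cdh5 and Cldn5 at 0, against 14.1 in Root eGFP and 28.3 in Asc-GFP. Of these endothelial sums Pecam1 alone made up 27.8, 12.1 and 26.7 CPM in that order. The part of all these markers in the Fbln1 difference was not tested. A Fbln1 UMI was seen in 11.002% of thinned Arch-GFP cells, 0.876% of Root eGFP and 0.702% of Asc-GFP cells. Without thinning the shares were 18.2%, 2.26% and 2.08%.

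Within the arch, Fbln1 was concentrated in few cells. Of 8031 cells, 6567 (81.8%) had no Fbln1 UMI, 760 had 1, 211 had 2, 279 had 3 to 5, 160 had 6 to 10 and 54 had more than 10, with a maximum of 29. The 245 richest cells (3.05%) held 50% of the UMIs, and the richest 5% (402 cells) held 65.3%. Cells with at least 3 UMIs numbered 493 in Arch-GFP, 62 in the root, 8 in Asc-GFP and 30 in Asc-RFP. Over cells thinned to one depth, the variance of Fbln1 UMIs was 2.34 times the mean in Arch-GFP, 2.81 times in the root, 1.38 times in Asc-GFP and 2.07 times in Asc-RFP, where counting alone gives a ratio near 1. Efemp2 came close to that floor, at 1.01 to 1.05 in the 4 libraries. It took 18.9% to 19.8% of the cells to hold 50% of the Efemp2 UMIs, and 22.5% to 24.6% for Fbln5. For Fbln2, 50% of the UMIs lay in 0.642% to 0.819% of the cells, a share also limited by its few UMIs (308 to 634 in a library). Over thinned cells the variance of Fbln2 was 1.48 times the mean in Arch-GFP, 3.12 times in the root, 2.37 times in Asc-GFP and 3.09 times in Asc-RFP.

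**Figure D2:**
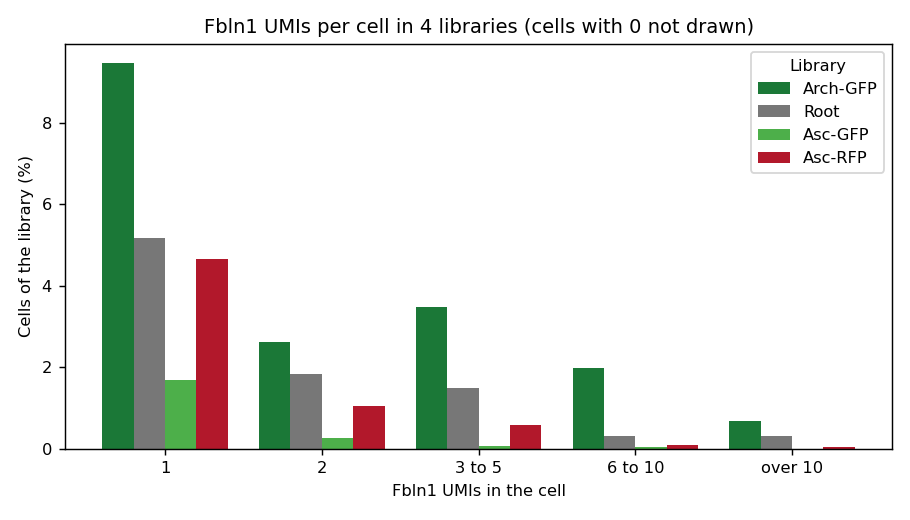
Percent of the cells of each library (vertical axis, from 0) with 1, 2, 3 to 5, 6 to 10 and more than 10 Fbln1 UMIs (horizontal axis); cells without a Fbln1 UMI, 81.8% in Arch-GFP, are not drawn. Arch-GFP has the highest bar in every class, and 54 of its cells have more than 10 UMIs.

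Cells were clustered without the fibulins and the reporter genes. Cluster 7 held 1173 Arch-GFP cells (14.6%), 18 Asc-GFP cells (0.281%), 1 Asc-RFP cell and no root cell. Its leading genes were Adamtsl1, Prss12, Tshz2, Prrx2, Rgs5, Frzb, Gm26771, Thbd, Lamc3 and Sfrp2, and it was given no cell type name. It held 78.9% of the Arch-GFP Fbln1 UMIs and 462 of the 493 cells with at least 3. Fbln1 stood at 214 CPM in cluster 7 cells of the arch and at 10.3 CPM in the other arch cells. A Fbln1 UMI was seen in 66.9% of cluster 7 cells and in 9.90% of the other arch cells, at median depths of 12206 and 12743 UMIs.

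Other fibulins were higher in the same cluster, though less so. Fbln5 was at 1212 CPM in cluster 7 and 524 CPM in the other arch cells, a log2 ratio of 1.21, so that 14.6% of the cells held 29.5% of the Fbln5 UMIs. Efemp1 was at 20.004 CPM in cluster 7 and 2.05 CPM elsewhere in the arch (log2 3.29), and the cluster held 63.9% of its UMIs. Fbln7 was at 8.84 CPM in cluster 7 and 2.22 CPM elsewhere, and Efemp2 at 129 and 97.7 CPM. Fbln2 went the other way, with 1.74 CPM in cluster 7 and 7.10 CPM in the other arch cells. Hmcn1 had 6 UMIs in cluster 7 and 7 outside it. Because the cluster is itself a group of these arch cells, the levels describe it and test nothing.

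Counted against all 6303 genes at 20 CPM or more, of which 3.82% were at least 2-fold higher in cluster 7 and 1.25% lower, 3 of 4 measured fibulins were higher (Fbln1, Fbln5, Efemp1). Fbln1 was chosen for its level in the arch and Efemp1 reached the minimum through cluster 7 alone, so that nothing is read from this count. Among genes of the elastic fibre, 4 of 18 measured were higher and 1 lower, with a median log2 ratio of 0.55 beside 0.17 over all genes. The 4 were Ltbp2 (251 CPM in cluster 7 and 52.1 CPM in the other arch cells, log2 2.27), a latent TGF-beta binding protein that binds fibulin-5, the microfibril genes Mfap2 (1.90) and Mfap5 (1746 and 584 CPM, 1.58), and the lysyl oxidase Loxl2 (1.44). Tgm2, a cross-linking transglutaminase, was lower at -1.03. Of 23 measured genes for binding partners of fibulins 2 were higher, Vcan (344 and 89.3 CPM, 1.95), which encodes versican, and the laminin chain Lama2 (1.77). Among 12 integrins and receptors, Itgb8 (1.82) and Egfr (1.07) were higher, and Itga5, the alpha chain of the fibronectin receptor, was lower at 41.4 CPM in cluster 7 and 120.0 CPM in the other arch cells (-1.53). None of the 8 smooth muscle markers was past 2-fold, with a median log2 ratio of -0.22. Their sum was 29343 CPM in cluster 7, and fibroblast markers summed to 551 CPM and pericyte markers to 2129 CPM there. Of the fibroblast list, Col15a1 alone was at 502 CPM in the Arch-GFP cells of cluster 7 and 191 CPM in the other arch cells. The part of these markers in the fibulin levels was not tested.

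**Figure D3:**
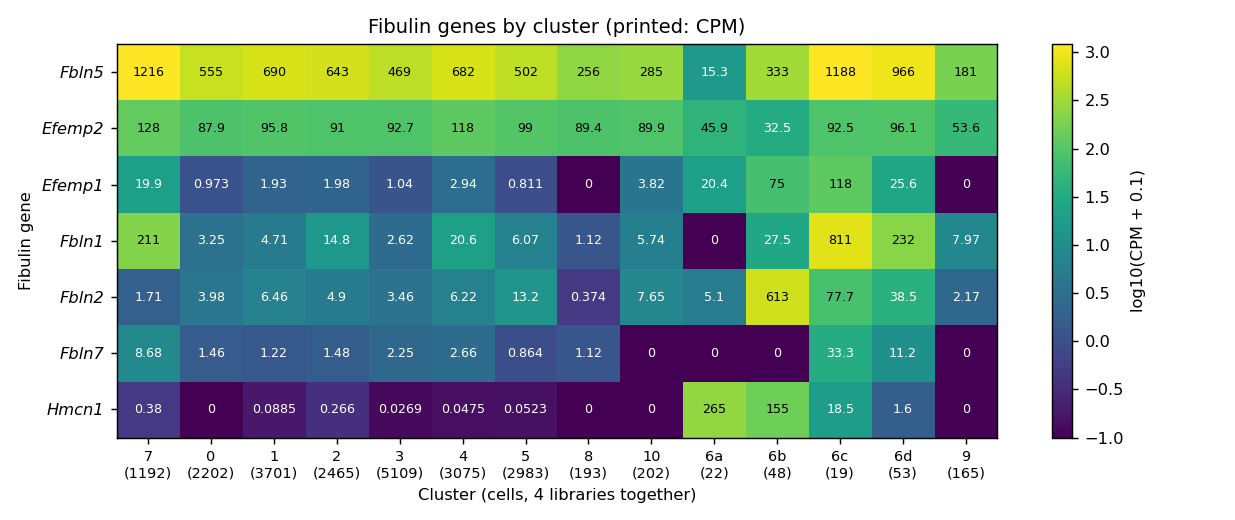
Level of each fibulin gene (rows) in each cluster of cells (columns, cell numbers in parentheses, 4 libraries together), with CPM printed in each field and the colour giving log10(CPM + 0.1); the clusters were found without the fibulin genes. Fbln1 reads 211 CPM in cluster 7 and 811 in 6c, Fbln2 613 in 6b and Hmcn1 265 in 6a, while Efemp2 runs from 32.5 to 128 CPM.

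Arch cells were binned by their Fbln1 UMIs into 0, 1 or 2, and at least 3 (6567, 971 and 493 cells). Median depths were 12872, 11034 and 12322 UMIs. The genes that went with Fbln1 formed an ordered series over these bins. Cells of cluster 7 made up 5.91%, 33.3% and 93.7% of the bins in that order. Adamtsl1, Prss12, Tshz2, Prrx2, Rgs5, Frzb and Thbd are leading genes of that cluster. Whether the series also holds among cells inside or outside the cluster was not tested. Fbln5 was at 540.02, 809.9 and 1438 CPM in these bins, Efemp1 at 2.40, 7.91 and 29.3 CPM, and elastin (Eln) at 2249.9, 2881 and 4247 CPM. Adamtsl1, an ADAMTS-like matrix protein, was at 15.6, 104 and 323 CPM, and Prss12, a serine protease, at 8.29, 50.8 and 181 CPM. The homeobox genes of the branchial arches had the same order, with Dlx5 at 10.6, 42.1 and 90.4 CPM, Dlx6 at 9.04, 40.7 and 91.9 CPM and Msx2 at 4.14, 20.9 and 47.9 CPM. The AP-2 factor Tfap2b was at 3.103, 14.7 and 43.0 CPM, Tshz2 at 9.73, 61.4 and 245 CPM, and Prrx2 at 24.4, 87.8 and 219 CPM. Acta2, the smooth muscle actin, was lower at each step, with 22388, 19217 and 11873 CPM. Among other genes of the arch list, Rgs5 was at 190.01, 677 and 1754 CPM, Frzb at 26.1, 71.2 and 166 CPM, Mdk, a heparin-binding growth factor, at 11.4, 41.4 and 144 CPM, and Thbd, thrombomodulin, at 43.5, 101 and 214 CPM. The ephrin receptor gene Epha3 was at 20.2, 31.5 and 34.8 CPM, and Igfbp5 had the opposite order, at 27.0, 18.0 and 17.0 CPM. The fibroblast markers Dcn, at 8.25, 15.2 and 119 CPM, and Pi16, at 0.845, 5.39 and 46.0 CPM, had the order of Fbln1 over all cells. Of the 493 cells 12 lay in cluster 6d, which held markers of both fibroblasts and smooth muscle. Without the small clusters Dcn was at 4.77 CPM in cells with at least 3 Fbln1 UMIs and at 5.95 CPM in cells with none. Over all cells the other fibroblast markers rose too, among them Pdgfra (4.99, 10.6 and 19.4 CPM) and Col15a1 (209, 309 and 486 CPM). Pi16 and Col15a1 were not counted without the small clusters, so the part of cluster 6d in them was not tested.

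The Fbln1 cells of the root and of Asc-RFP differed from those of the arch in several genes. Leaving out the 5 small clusters described below, 48 root cells had at least 3 Fbln1 UMIs and 2548 had none. In the 48, Lum stood at 488 CPM and in the 2548 at 11.4 CPM, and Dcn at 1245 and 41.7 CPM; both encode small leucine-rich proteoglycans. Tnnt2, the cardiac troponin T gene, was at 2088 CPM in the 48 and 766 CPM in the 2548, and Frzb, a secreted Wnt antagonist, at 99.997 and 13.4 CPM. In 25 such Asc-RFP cells Dcn was at 272 CPM, Lum at 47.4 and Tnnt2 at 1641, against 37.3, 3.91 and 295 CPM in 3688 cells without Fbln1. In 481 arch cells with at least 3 UMIs, Dcn was at 4.77 CPM and Tnnt2 at 4.77 CPM, against 5.95 and 21.0 CPM in 6546 arch cells without. Lum had 4 UMIs in those 481 cells.

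Some genes of the arch cells, Adamtsl1 and Dlx5 among them, were nearly missing from the root and Asc-RFP cells. Adamtsl1, at 331 CPM in the 481 arch cells and 15.6 CPM in the 6546, had 0 UMIs in the 48 root cells and 1 UMI in the 25 Asc-RFP cells. Dlx5, at 92.4 and 10.6 CPM in those arch cells, had 0 UMIs in both. Others were higher beside Fbln1 in both places. Frzb was at 168 and 26.1 CPM in those arch cells. In the 48 and the 2548 root cells Tshz2 was at 17.8 and 1.36 CPM, Mdk at 19.2 and 6.39 CPM, Rgs5 at 43.8 and 25.8 CPM and Thbd at 17.8 and 11.1 CPM. The partner fibulins also differed by segment. Fbln5 was at 1438 CPM in arch cells with at least 3 Fbln1 UMIs and 539.6 CPM in those with none, but at 779 and 624 CPM in the root and 599 and 527 CPM in Asc-RFP. Eln was at 4251 and 2251 CPM in the arch cells and at 1252 and 1248 CPM in the root cells. Mfap5 was at 2069 and 614 CPM in the arch and at 177 and 191 CPM in the root. Dcn and Lum belong to the fibroblast marker list, and their part in the root values was not tested.

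**Figure D4:**
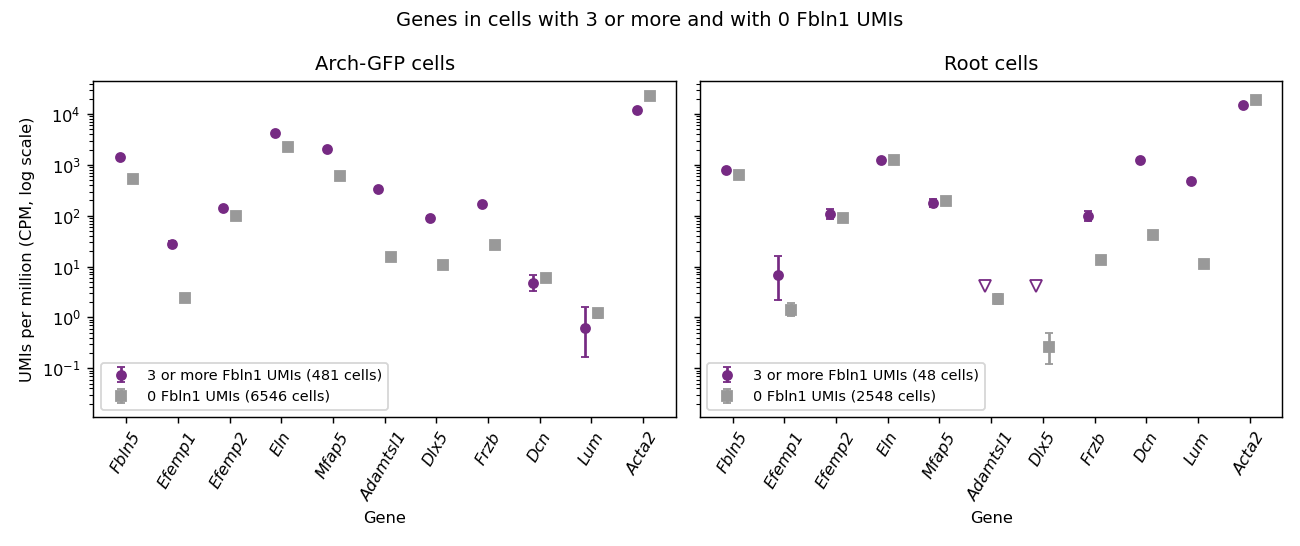
Level in CPM (log axis) of fibulins and of other genes in cells with at least 3 Fbln1 UMIs (circles) and in cells with none (squares), in Arch-GFP (left) and in the root (right), without the 5 small clusters; bars are 95% counting intervals and open triangles mark 0 UMIs, drawn at the level of 3 counts. Adamtsl1 reads 331 and 15.6 CPM in the arch, and Lum 488 and 11.4 CPM in the root.

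Of the 62 root cells with at least 3 Fbln1 UMIs, 46 lay in cluster 2 and 13 in cluster 6c. Of the 30 in Asc-RFP, 11 lay in cluster 5 and 10 in cluster 2. In cluster 2, muscle cells of both segments, Fbln1 was at 16.4 CPM in the root and 14.7 CPM in Asc-RFP. None of these 62 and 30 cells lay among the macrophage-like cells of cluster 9, although 9.09% of the 99 root cells there had at least 1 Fbln1 UMI, the same share as in the whole root library before thinning. After thinning the shares were 1.43% there and 4.16% in the whole root. Smooth muscle markers summed to 18025 CPM in those 99 cells, so that free RNA and mixed droplets cannot be told apart there. Single Fbln1 UMIs in the root are not read as expression here. The Fbln1 level of those macrophage-like cells was 11.004 CPM (5.49 to 19.7, 11 UMIs), above the 2.48 CPM of Root eGFP cells and with an interval that holds the 15.9 CPM of Root tdTomato cells. In Asc-RFP 0 of 65 macrophage-like cells had one, which allows a share of up to 4.62% by 3 counts of the total (exact upper limit 5.52%), at a median of 2587 UMIs.

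Small clusters with markers of other cells took a large part of the scarce fibulins. The 5 clusters (6a to 6d and 9) held 171 root cells (5.78%), which carried 94.7% of the root Hmcn1 UMIs, 39.0% of Fbln2, 30.5% of Fbln1, 17.3% of Efemp1 and 2.28% of Fbln5. In Asc-RFP 91 cells (2.26%) carried 70.6% of Hmcn1, 67.6% of Efemp1, 28.0% of Fbln2 and 19.2% of Fbln1. In Arch-GFP 39 such cells held 2.48% of Fbln1. Without these clusters Fbln1 was at 40.7 CPM in Arch-GFP, 11.8 in the root and 6.64 in Asc-RFP.

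In the root, most Hmcn1 UMIs lay in the endothelial-like clusters 6a and 6b, in which all 7 endothelial markers were detected. In root cells the endothelial markers summed to 3877 CPM in 6a and 4439 CPM in 6b, and the fibroblast markers, mostly Dcn, to 4815 and 5332 CPM (6 and 9 of 10 detected). The 22 root cells of 6a held 52 of its UMIs (265 CPM, 46.0% of the root total), and the 32 root cells of 6b held 55 (237 CPM, 48.7%). Without the small clusters Hmcn1 was at 0.158 CPM in the root. Fbln2, which is made by endothelial and mesenchymal cells, was at 613 CPM in 6b over all libraries. The root part of 6b held 32.5% of the root Fbln2 UMIs, and its Asc-RFP part, at 784 CPM, held 26.2% of those in Asc-RFP. The 296 Arch-GFP cells of cluster 5 had Fbln2 at 38.3 CPM and 26.3% of the Arch-GFP UMIs, although the 211 male cells among them were at 8.57 CPM (26 of the 167 UMIs). Cluster 6c, left unnamed, held 18 root cells with Fbln1 at 734 CPM (177 UMIs, 27.4% of the root total), Fbln5 at 1331 CPM and Dcn at 4828 CPM. In Asc-RFP a single cell with mesothelial markers held 42 Fbln1 UMIs and 31 of the 74 Efemp1 UMIs. In that library 2 cells held at least 50% of the Efemp1 UMIs.

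Between reporter colours, over all kept cells, Fbln1 and Fbln2 were lower and Fbln7 higher in eGFP cells, in both segments where the colours could be compared. In the root, the log2 ratio of eGFP to tdTomato cells was -2.69 for Fbln1 (-3.43 to -2.03), -1.26 for Fbln2 (-1.88 to -0.69) and 1.07 for Fbln7 (0.23 to 1.88). In the ascending aorta the ratio of Asc-GFP to Asc-RFP was -1.92 for Fbln1 (-2.17 to -1.66), -0.55 for Fbln2 (-0.74 to -0.36) and 1.81 for Fbln7 (1.22 to 2.46). The root difference compares cells of 1 library, and the ascending difference compares separate libraries, so these values stand side by side without a test. In the root the Fbln1 ratio was -3.45 in female and -0.75 in male cells. Fbln5 was at 0.09 in the root and 0.22 (0.20 to 0.24) in the ascending aorta, and Efemp2 at 0.05 and 0.01. Hmcn1 had 2 UMIs in Root eGFP and 91 in Root tdTomato cells, a ratio of -3.77 (-6.84 to -1.88), and 2 in Asc-GFP and 17 in Asc-RFP (-3.73, -6.89 to -1.65). Endothelial markers moved alongside in the root, at 14.1 CPM in eGFP cells and 65.2 CPM in tdTomato cells, and macrophage and fibroblast markers did so too, and their part in the Fbln1 and Fbln2 ratios was not tested. Macrophage markers summed to 5.29 CPM over Asc-GFP cells, against 171 CPM over Asc-RFP cells, and mesothelial markers to 0.0238 and 4.28 CPM, and their part was not tested either. Without the small clusters the Hmcn1 ratio in the root was 0.68, from 2 UMIs in eGFP and 4 in tdTomato cells, and -1.98 in the ascending aorta. Fbln2 was then at 5.43 CPM in Asc-GFP (4.94 to 5.95) and 6.14 CPM in Asc-RFP (5.49 to 6.84), with overlapping intervals. In the same cells Fbln1 was at 2.14 and 6.64 CPM, and Fbln7 at 1.76 and 0.469 CPM. In neither comparison was any of the 2 measured members (Fbln5, Efemp2) past 2-fold, beside 0.104% of genes higher and 0.847% lower for Root eGFP over Root tdTomato and 0.21% and 0.472% for Asc-GFP over Asc-RFP. Fbln1, Fbln2 and Fbln7 did not reach 20 CPM in these pairs.

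At 1 colour, root cells had somewhat other fibulin levels than ascending cells. For tdTomato cells the log2 ratio of root to Asc-RFP was 0.97 for Fbln1 (0.78 to 1.17), 1.45 for Fbln7 (0.69 to 2.23), 0.62 for Efemp1 (0.09 to 1.15), 0.21 for Fbln5, 0.05 for Fbln2 and 3.50 for Hmcn1 (2.74 to 4.34). Endothelial markers stood at 65.2 CPM in Root tdTomato and 27.4 CPM in Asc-RFP cells and macrophage markers at 605 and 171 CPM. Without the small clusters the ratio was 0.79 for Hmcn1, 2.02 for Efemp1 and 0.96 for Fbln1. For eGFP cells the ratio of root to Asc-GFP was 0.20 for Fbln1, with an interval of -0.56 to 0.89 that includes 0 (-0.81 in female and 2.43 in male cells), 0.70 for Fbln7, 0.54 for Efemp1, -0.65 for Fbln2 (-1.26 to -0.10) and 0.08 for Fbln5. Of the 2 measured members in each pair none was past 2-fold, beside 1.24% of genes higher and 0.482% lower for tdTomato cells and 0.619% and 0.533% for eGFP cells. The arch differed from Asc-GFP in Efemp1 (1.57, 1.29 to 1.86) and Fbln7 (0.88, 0.60 to 1.17) as well as Fbln1, while Fbln2 was at 0.13 (-0.04 to 0.30), Fbln5 at 0.03 and Efemp2 at 0.10. Against Root eGFP the arch ratio was 1.03 for Efemp1 (0.36 to 1.80) and 0.78 for Fbln2 (0.24 to 1.38). Without cluster 7 the arch ratios to Asc-GFP were 0.38 for Efemp1, 0.33 for Fbln7 and -0.23 for Fbln5, and the Efemp1 ratio to Root eGFP was -0.20.

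**Figure D5:**
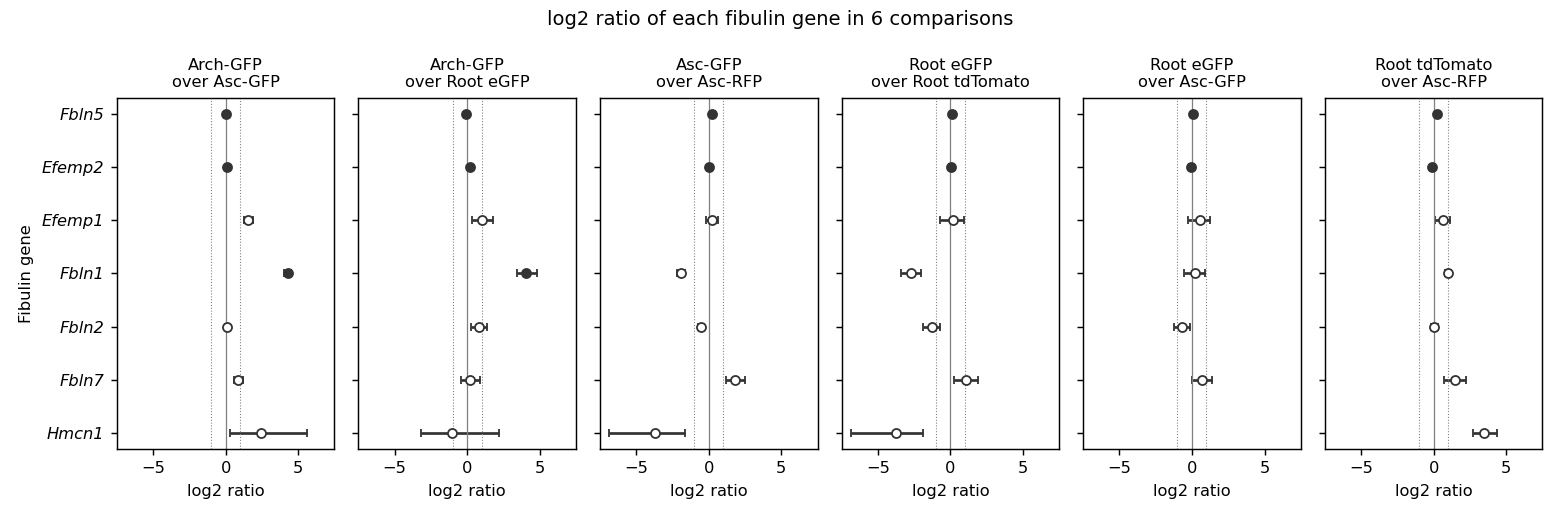
Log2 ratio of each fibulin gene in the 6 comparisons of cell groups, with 95% counting intervals; the first-named group is higher to the right of 0, filled points are genes that reached 20 CPM in either group, dotted lines mark 2-fold, and Hmcn1 is not drawn where both groups had 2 UMIs. Fbln1 lies at 4.27 for Arch-GFP over Asc-GFP and at -2.69 for Root eGFP over Root tdTomato, while Fbln5 stays between -0.05 and 0.22.

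Fbln5 was higher in female than in male cells of every library. It was at 686 CPM in female and 605 CPM in male Arch-GFP cells, 690.0 and 470.3 CPM in Asc-GFP cells of each sex, 601 and 457 CPM for Asc-RFP, and 659.8 and 414 CPM for the root. In arch cells it was so within cluster 7 (1347 and 1194 CPM) and in the sum of the cells outside it (603 and 483 CPM). Outside it the order varied by cluster. In cluster 1 of the arch, female cells were at 606 CPM (593 to 620) and 126 male cells at 670 CPM (634 to 709). In cluster 3 the female and male values were 498 and 458 CPM, and in cluster 0 they were 510 and 386 CPM. Fbln1 was at 52.8 CPM in female and 35.6 CPM in male Arch-GFP cells, with 365 and 175 CPM inside cluster 7. Each library has an unknown number of animals, so that sex and animal cannot be told apart. The libraries also differ in their share of female cells, given above. Within female cells the log2 ratio of Arch-GFP to Asc-GFP was 4.29 for Fbln1 and within male cells 4.45.

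Genes whose proteins build elastic fibres with fibulin-4 and fibulin-5 were counted in the same comparisons. Over Root eGFP 3 of 16 measured genes passed 2-fold upward in Arch-GFP, Mfap5 (762.2 and 193 CPM, log2 1.98), Ltbp2 (1.48) and Mfap4 (1.43), beside 1.5% of all measured genes, with a median of 0.51 beside 0.04 over all genes, and Eln was at 2454 and 1393 CPM (0.82). Over Asc-GFP none of 16 was past 2-fold, beside 0.345% of all genes higher and 0.104% lower, with a median of 0.15 beside 0.03, Ltbp2 at 0.94 and Mfap5 at 0.41. Loxl2, with 10.8 CPM among Asc-GFP and 29.3 CPM among Asc-RFP cells (-1.44), was the 1 gene of 17 past 2-fold between these libraries, where 0.472% of all genes were lower. None of 15 was past 2-fold in Root eGFP over Root tdTomato. Mfap5 (-1.56) and Mfap4 (-1.32) were lower in Root eGFP than in Asc-GFP, 2 of 16 measured beside 0.533% of all genes, and Mfap5 (-1.18) was lower in Root tdTomato than in Asc-RFP, 1 of 16 beside 0.482%.

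Genes for other binding partners were counted against the same background shares, in Arch-GFP over Root eGFP 1.5% higher and 1.08% lower. In Arch-GFP over Root eGFP Vcan (1.41) and Lama2 (1.27) were higher and Nid1, the basement membrane protein nidogen-1, lower (-1.45) of 24 measured, and none of 23 was past 2-fold in Arch-GFP over Asc-GFP. Acan, encoding aggrecan, stood at 44.0 CPM among Asc-GFP and 14.4 CPM among Asc-RFP cells (1.61), 1 of 23 measured beside 0.21% of all genes, and was higher in Root tdTomato than in Asc-RFP (1.29). Nid1 was higher in Root eGFP than in Asc-GFP (1.55), 1 of 24 measured beside 0.619% of all genes. Among integrins and receptors Itga4 was lower in Arch-GFP than in Root eGFP (-1.39), 1 of 11 measured, and higher in Root tdTomato than in Asc-RFP (1.07), 1 of 11 beside 1.24% of all genes. Of 18 measured basement membrane genes, Lama2, Smoc1 (1.25) and Col15a1 (1.01) were higher and Nid1 and Col4a4 (-1.26) lower in Arch-GFP than in Root eGFP, and Nid1 and Col4a4 (1.02) were higher in Root eGFP than in Asc-GFP. These lists were made from knowledge of the family with earlier results of these data known.

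Over single arch cells, 5 of the 8 genes nearest to Fbln1 were leading genes of cluster 7. Over 8031 cells and 5610 genes, Pearson's r of log counts with Fbln1 was 0.56 for Adamtsl1, 0.55 for Tshz2, 0.52 for Prss12, 0.47 for Rgs5, 0.44 for Prrx2, 0.43 for Mdk, 0.42 for Crispld2 and 0.40 for Lrrc17. For Fbln5 the nearest were Sparc (0.42), which encodes a collagen-binding matrix protein, Mfap5 (0.40), Rgs5 (0.38), Adamtsl1 (0.38), Prss12 (0.36), Htra1 (0.35), Sfrp2 (0.35) and Prrx2 (0.35). The order for Efemp1 began with Adamtsl1 (0.27), Prss12 (0.25) and Tshz2 (0.24). Fbln1 had an r of 0.36 with Fbln5, 0.25 with Efemp1 and 0.08 with Efemp2. Over the 2960 root cells the gene nearest to Hmcn1 was Cgnl1 (0.50), followed by Ece1 (0.49) and the endothelial receptor gene Eng (0.45). Over the 4030 Asc-RFP cells Vcam1 was nearest to Fbln2 (0.26), then Cgnl1 (0.22) and Ece1 (0.21). The highest r was 0.11 for Fbln7 and 0.11 for Efemp2, too weak in sparse counts to describe a pattern. The points are cells of 1 library and share its depth and free RNA.

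Over the 5 groups the genes with the level pattern most like that of Fbln1 were Tshz2, a zinc finger and homeobox gene, and Frzb, with root mean square differences of 0.61 and 0.64 in centred log2(CPM + 1). Tshz2 was at 31.1 CPM in Arch-GFP, 0.391 in Root eGFP, 3.12 in Asc-GFP, 7.19 in Root tdTomato and 6.89 in Asc-RFP cells. Frzb was at 40.5 CPM in Arch-GFP, 10.2 in Root eGFP, 6.28 in Asc-GFP, 19.0 in Root tdTomato and 11.008 in Asc-RFP cells. Mdk (0.86), Ablim1 (0.86), Thbd (1.001) and Rian (1.03) came next.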

How the data were processed

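Single-cell counts were deposited as 10x matrices of whole-number UMIs per gene and barcode, not normalised, made with Cell Ranger 7.0.0 per the file headers. The submitters' processing notes name mm10 as genome build and Seurat 4.3. The sources used here do not give their cell filter, after which the labels state 4710 Arch-GFP, 1841 root, 4050 Asc-GFP and 2450 Asc-RFP cells, fewer than here. A barcode was kept if it had 1000 or more genes and no more than 10% of its UMIs from mt- genes, which left 8031 of 10506 barcodes in Arch-GFP, 2960 of 4040 in Root, 6408 of 8845 in Asc-GFP and 4030 of 6539 in Asc-RFP. Cells are not replicates, so UMIs were summed per group and given as CPM with exact Poisson intervals, and ratios with exact conditional binomial intervals (95%). Fewer cells with a transcript and fewer transcripts per cell cannot be told apart in such sums. With 1 library per group no test was run. A gene was counted as higher or lower at 2-fold or more with at least 20 CPM in either group. Shares of cells were taken after thinning each cell to 4000 UMIs, leaving out shallower cells.

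Cells of all libraries were clustered with scanpy 1.11.5 (2000 variable genes without the fibulins and reporters, 30 components, 15 neighbours, Leiden resolution 0.5; leidenalg 0.10.2), and 1 cluster of mixed cells was split again at resolution 0.3 into 6a to 6d. Clusters were named from marker lists; doublets and free RNA were not removed. Python 3.11.15, numpy 2.4.6, pandas 2.3.3, scipy 1.17.1 and edgeR 4.0.16 (scaling factors) in R 4.3.3 were used. Of the features 32235 matched the annotation used for positions. The ratio calls were tested on simulated data. All 7 fibulins are named; likeness names the 8 genes with the highest r over cells in the library where a fibulin is highest, and the 6 nearest over the 5 groups for Fbln1; lists name up to 4 genes each. Members and lists were chosen with earlier results of these data known. Alternatives were other cell filters, leaving out small clusters or cells with fibroblast UMIs, the deepest cells, 1 sex, other scalings, reporter thresholds, thinning and level minimums, plus leaving out cluster 7, chosen after seeing the data.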

Additional observations from a re-analysis of the deposited data

Results flagged for a closer look

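Female and male cells gave opposite directions for the ratio of Arch-GFP to Asc-GFP in Fbln2, with a log2 ratio of 0.94 in female cells and -0.72 in male cells. These values rest on 248 female and 203 male UMIs in Arch-GFP and on 281 and 120 in Asc-GFP. Of all 634 Fbln2 UMIs in Arch-GFP, 6 cells held 139, and counting intervals do not cover such clumping. In the ratio of Root eGFP to Root tdTomato cells, Fbln5 was at 0.13 in female cells and at -0.23 in male cells. Neither difference between the sexes was tested, since each group is 1 library and the number of animals behind each sex is not given.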

How the results depend on the processing

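No paired analysis was possible. Root eGFP and Root tdTomato cells share 1 library, which gives a single pair. The other groups are 1 library each and share only replicate number 1. The Fbln1 ratio had the same direction in all 6 comparisons under the other barcode filters and scalings and without cluster 7, and under the other reporter thresholds in the comparisons that use root cells. For Root eGFP over Asc-GFP that ratio was 0.20 with an interval of -0.56 to 0.89, so its direction is not settled by the counts. The log2 ratio of Fbln1 for Arch-GFP over Asc-GFP (4.27) was 4.61 with at least 2000 genes and at most 5% mitochondrial UMIs, 4.51 with each cell weighted alike and 2.45 without cluster 7. For Arch-GFP over Root eGFP (4.07) it was 5.10 in female cells, 2.02 in male cells and 2.06 without cluster 7. For Asc-GFP over Asc-RFP (-1.92) it was -2.27 under the stricter filter, -1.63 without the small clusters and -1.55 without cells holding a UMI of Pdgfra, Pi16, Dpt or Cd34. In female and male cells it was -3.45 and -0.75 for Root eGFP over Root tdTomato, -0.81 and 2.43 for Root eGFP over Asc-GFP, and 0.73 and 1.42 for Root tdTomato over Asc-RFP. Efemp1 reversed to -0.20 (-0.90 to 0.59) in Arch-GFP over Root eGFP without cluster 7, and Hmcn1 to 0.68 in Root eGFP over Root tdTomato without the small clusters, from 2 and 4 UMIs. The cause of these shifts was not tested.

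The number of fibulins past 2-fold depends on the level minimum. With 3 UMIs in either group in place of 20 CPM, 3 were higher in Arch-GFP over Asc-GFP. By the same minimum 2 were higher and 1 lower in Arch-GFP over Root eGFP, 1 higher and 2 lower in Asc-GFP over Asc-RFP, 1 higher and 3 lower in Root eGFP over Root tdTomato, and 2 higher in Root tdTomato over Asc-RFP. With 5 CPM, 1 was lower in Asc-GFP over Asc-RFP and 2 in Root eGFP over Root tdTomato. The member lower in Arch-GFP over Root eGFP was Hmcn1, from 13 and 2 UMIs, with an interval of -3.16 to 2.17. The share of all genes past 2-fold under these minimums is not given here, so that nothing is read from these counts. The richest 5% of Arch-GFP cells held 67.8% of the Fbln1 UMIs after thinning, 67.6% in female cells and 62.0% without cluster 7, against 65.3% in all cells. Among these alternatives, fibulin ratios with 0 UMIs in a group were not computed. Depth limits Hmcn1, Efemp1 and Fbln7 most, and 1 library per group leaves the spread between animals unmeasured.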

Other observations

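Between sexes, other fibulins had no common direction. Fbln2 was at 11.03 CPM in female and 3.49 CPM in male Arch-GFP cells, but at 5.73 and 5.76 CPM in Asc-GFP. Efemp1 was at 4.58 and 4.68 CPM in female and male Arch-GFP cells and at 2.08 and 0.673 CPM in Asc-GFP. Fbln7 was at 1.82 CPM in female and 3.67 CPM in male Arch-GFP cells, while inside cluster 7 it was at 9.57 and 9.17 CPM. Fbln1 in Root eGFP cells was at 1.54 CPM in female cells and at 8.80 CPM in male cells, the second value from 7 UMIs in 64 cells.

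Further clusters carried Fbln1 or Fbln5 away from the rest. Cluster 4, whose cells are shallow, held 2038 Arch-GFP cells with Fbln1 at 33.2 CPM (412 UMIs, 9.82% of the Arch-GFP total), against 3.63 CPM in the 2922 cells of cluster 3. The 39 Arch-GFP cells of cluster 6d had Fbln1 at 227 CPM and Fbln5 at 1046 CPM. In these cells all 8 smooth muscle markers were detected, at a summed 27696 CPM, beside 9 of 10 fibroblast markers at 3940 CPM. In the root, cluster 8 held 189 cells with Fbln5 at 253 CPM, below the 614 CPM of all Root tdTomato cells.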
